A study of Mus musculus with 8 samples.

Results

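The genes described here encode the proteins of the cytoplasmic ribosome. They were taken as the protein-coding genes of the mouse genome build mm10 whose symbol starts with Rpl or Rps followed by a number (with an optional a, x, y or l), together with Rplp0, Rplp1, Rplp2 and Rpsa. This gave 82 genes of 21631, comprising 51 large subunit genes (Rpl and Rplp) and 31 small subunit genes (Rps and Rpsa), on 19 chromosomes. The choice used gene names only, and no measured value. Rps4l, a listed duplicate, is annotated as a transcribed pseudogene and was not found among them, and 7 genes that fall outside the naming rule, such as Rps3a1, Rack1, Fau and Rpl22l1, are given as a separate list.

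The data are peak lists from CUT&RUN, in which an antibody tethers a protein A-MNase fusion to marked nucleosomes so that the DNA around them is cut free and sequenced. Haematopoietic stem cells (HSCs) were sorted from the bone marrow of C57BL/6 mice as Lin-cKit+Sca1+CD48-CD150+ cells. In RXRKO, Vav-Cre had deleted Rxra and Rxrb, which encode retinoid X receptors. Vav-Cre acts in blood-forming cells and, in some lines, in endothelium. The WT labels name Vav-Cre and no deletion, whereas the design text gives floxed alleles without Cre, so whether WT HSCs carried Cre is unresolved. In both groups each assay used 7500 HSCs, sorted from pools of 4 or 5 animals aged about 10 months, so a mark in fewer cells and a weaker mark in all cells cannot be told apart. H3K4me1, a mark of enhancers and promoter edges, was mapped in 2 RXRKO and 2 WT libraries, while H3K4me3, found at active promoters, and H3K27ac, found at active enhancers as well, had 1 RXRKO and 1 WT library each. Nothing in the labels says that the 2 H3K4me1 libraries of a genotype came from separate pools, so p-values measure only the spread between these libraries. Both replicate 1 H3K4me1 libraries carry one sequencing run tag and the other 6 libraries carry another.

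The H3K4me1 lists held 147698 and 165128 peaks in RXRKO replicates 1 and 2, against 149377 and 159713 in WT replicates 1 and 2. The other marks gave 58136 peaks in RXRKO against 47835 in WT for H3K4me3, and 64849 in RXRKO against 74287 in WT for H3K27ac. Read totals are not in the peak lists, so depth is unknown and no counting interval can be given. Of 12 HSC marker genes, all 12 had a called H3K4me3 promoter in both genotypes, against 65.6% of all genes. Called in both genotypes were also 3 of 5 erythroid and 4 of 5 stromal and endothelial markers, but none of 4 B cell, 4 T cell and 6 granulocyte and monocyte markers. In RXRKO only, an H3K4me3 promoter was called for Cd79a, Lck, Cx3cr1 and Hbb-bt. Over all genes this held for 1.46%, against 0.398% in WT only. H3K27ac promoters were called in both genotypes for 9 of 12 HSC, 3 of 5 erythroid and 3 of 5 stromal and endothelial markers. They were also called for 1 of 4 T cell and 1 of 6 granulocyte and monocyte markers (56.2% of all genes). For H3K27ac, 2 granulocyte and monocyte markers were called in WT only and 1 erythroid marker in RXRKO only. The part of other cells in the results below was not tested.

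Each ribosome joins a small subunit, which decodes the messenger RNA, to a large subunit, which forms the peptide bond. Their proteins are made in nearly equal numbers in every growing cell, and the transcripts start with a run of pyrimidines (C and T), the 5' terminal oligopyrimidine motif, through which mTOR signalling controls their translation. HSCs are known for a low rate of protein synthesis and for sensitivity to changes in it. Loss of 1 copy of many of these genes causes Diamond-Blackfan anaemia in humans, in which red cell production fails. Retinoid X receptors bind DNA in pairs with partner receptors at repeats of the hexamer AGGTCA.

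The promoter sequences below are shown because they hold a run of pyrimidines, which most promoters of the family share. RefSeq's promoter table for mm10 matched 62 of the 82 genes. In genes with several starts, only the start with the most H3K4me3 within 1 kb was read. Each line gives 80 bases before and 30 bases from the transcript start, 5' to 3' on the gene's strand, with the longest run of C and T between 50 bases before and 30 bases after the start in capitals. Rps27, Rps10, Rpl15 and Rpl11 are Diamond-Blackfan anaemia genes, Rpl28 and Rpl4 are large subunit genes with H3K4me3 of low and high fold over background, and Rpl22 and Rps27l start inside their annotated spans.
Rps27: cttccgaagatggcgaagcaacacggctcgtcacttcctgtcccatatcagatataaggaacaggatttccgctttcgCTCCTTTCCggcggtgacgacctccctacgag
Rps10: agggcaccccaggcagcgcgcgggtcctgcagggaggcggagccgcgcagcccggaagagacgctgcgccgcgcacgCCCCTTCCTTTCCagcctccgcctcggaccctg
Rpl15: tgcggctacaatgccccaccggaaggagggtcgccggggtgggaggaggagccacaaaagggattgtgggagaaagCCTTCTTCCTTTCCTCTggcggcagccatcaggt
Rpl11: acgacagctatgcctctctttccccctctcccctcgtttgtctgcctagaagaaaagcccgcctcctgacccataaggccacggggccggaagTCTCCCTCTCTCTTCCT
Rpl28: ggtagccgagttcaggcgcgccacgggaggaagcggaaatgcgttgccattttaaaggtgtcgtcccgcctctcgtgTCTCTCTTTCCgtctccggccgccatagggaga
Rpl4: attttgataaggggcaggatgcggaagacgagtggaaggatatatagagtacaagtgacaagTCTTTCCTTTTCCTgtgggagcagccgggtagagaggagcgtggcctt
Rpl22: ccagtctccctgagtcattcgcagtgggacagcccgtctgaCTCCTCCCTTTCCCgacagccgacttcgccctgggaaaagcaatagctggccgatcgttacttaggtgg
Rps27l: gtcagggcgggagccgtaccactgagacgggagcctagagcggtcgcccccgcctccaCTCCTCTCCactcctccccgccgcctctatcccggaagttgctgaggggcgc

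Rpl3l, made in heart and skeletal muscle in mice, and Rpl10l and Rpl39l, made mainly in the testis in mice, are copies of Rpl3, Rpl10 and Rpl39. Their starts are shown in the same way for comparison.
Rpl3l: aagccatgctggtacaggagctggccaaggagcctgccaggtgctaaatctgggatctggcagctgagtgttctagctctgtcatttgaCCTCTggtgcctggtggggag
Rpl10l: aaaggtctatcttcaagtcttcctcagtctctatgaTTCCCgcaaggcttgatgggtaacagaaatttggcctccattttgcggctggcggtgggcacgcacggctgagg
Rpl39l: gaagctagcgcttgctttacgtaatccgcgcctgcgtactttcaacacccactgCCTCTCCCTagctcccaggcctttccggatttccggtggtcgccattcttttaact

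These windows lie at chr3:90213619-90213728 for Rps27, chr17:27635215-27635324 for Rps10, chr14:18270957-18271066 for Rpl15, chr4:136053364-136053473 for Rpl11 and chr12:66284372-66284481 for Rpl10l, all on the minus strand. On the plus strand they lie at chr7:4792885-4792994 for Rpl28, chr9:64173307-64173416 for Rpl4, chr4:152325646-152325755 for Rpl22, chr9:66946006-66946115 for Rps27l, chr17:24727746-24727855 for Rpl3l and chr16:10170148-10170257 for Rpl39l. The pyrimidine run measured 17 bases in Rpl15 and Rpl11, 14 bases in Rpl4 and Rpl22 and 13 bases in Rps10. Between 50 bases before and 30 bases after the start, the longest run in Rpl3l and Rpl10l was 5 bases. The printed Rpl10l line holds a longer run further upstream, outside that stretch. Rpl3l has a run of 9 bases when 50 bases after the start are read. Rpl39l had 9 bases, as many as Rps27 and Rps27l.

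Between 50 bases before and 50 bases after the start, a run of at least 8 pyrimidines on the gene's strand was present in 52 of the 62 promoters (83.9%). The share was 34.7% among all 17274 genes with a promoter sequence and 31.8% among the 11534 of them with H3K4me3 at the start in both genotypes. The letters CTTTCC on the gene's strand in the same stretch, which can lie within such a run, were found in 19 of the 62 (30.6%), against 4.38% of all genes. No run of 8 was found in Rpl10l, Rpl23, Rpl24, Rplp0, Rps13, Rps19, Rps28, Rps3, Rps4x and Rpsa. For Rps19 the start read lies 321 bp inside its outer end, and its outer starts were not read. Mitochondrial ribosomal protein genes, which share the name but serve another ribosome, had the run in 23 of 69 promoters (33.3%).

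Over the 300 bases from 250 before to 50 after the start, on either strand, CCGGAAG, the core bound by ETS family factors such as GABPA, was found in 24 of 62 promoters (38.7%) against 12.3% of all genes and 17.1% of those with H3K4me3 at the start. GGGCGG, the box bound by SP1, was found in 36 (58.1%), above the 48.1% of all genes but below the 66.9% of genes with H3K4me3 at the start. The E-box CACGTG bound by MYC was found in 6 (9.68%), against 8.06% of all genes and 10.2% of those with H3K4me3. TATAAA was found in 6 (9.68%), below the 13.1% of all genes but above the 6.43% of those with H3K4me3, and AAGATGGC, bound by YY1, in 4 (6.45%), against 3.26% of all genes and 4.27% of those with H3K4me3. The retinoid X receptor hexamer AGGTCA was found in 6 promoters (9.68%), those of Rpl10l, Rpl24, Rpl35a, Rpl3l, Rps3 and Rps4x, against 14.1% of all genes and 11% of those with H3K4me3. These are matches of letters only, and binding was not measured.

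H3K4me3 marked almost the whole family in both genotypes. A promoter was called where a peak reached by at least 1 bp into the windows of 1 kb around both gene ends, since the gene table gives both ends without strand. By this rule 78 of the 82 genes (95.1%) had H3K4me3 in both the RXRKO and the WT library, against 65.6% of all genes. The single-library counts were 79 members in RXRKO (67.1% of all genes) and 78 in WT (66% of all genes). Only Rpl17 was called in RXRKO alone, a state that 1.46% of all genes shared. No member was called in WT alone, against 0.398% of all genes, and Rpl32l, Rpl10l and Rpl39l were called in neither genotype, as were 32.6% of all genes. All 31 small subunit genes were called in both genotypes, and so were 47 of the 51 large subunit genes.

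H3K27ac was called at 77 of the 82 promoters (93.9%) in both genotypes, against 56.2% of all genes, and thus at 77 in each (57.5% of all genes in RXRKO and 60.9% in WT). No member was called in 1 genotype alone, against 1.32% of all genes in RXRKO alone and 4.74% in WT alone. The 5 genes without a call were Rpl32l, Rpl10l, Rpl39l, Rpl19 and Rpl17. For H3K4me1, 75 and 79 of the 82 promoters had a peak in RXRKO replicates 1 and 2, against 75 and 78 in WT replicates 1 and 2. Among all genes these shares were 69.2% and 72.2% in RXRKO and 69.5% and 72.1% in WT. The H3K4me1 counts turned on few base pairs at some genes. Rpl7 had 194 and 284 bp at its promoter in RXRKO, against 0 and 0 bp in WT, which makes it the member called in both libraries of one genotype and neither of the other. The share of all genes in that state is not given here, so this is no result about the family. Rpl35 had 0 and 822 bp in RXRKO against 729 and 797 bp in WT, and Rps24 had 0 and 745 bp in RXRKO against 415 and 366 bp in WT. At Rpl23 the lengths were 0 and 375 bp in RXRKO against 0 and 499 bp in WT, and at Rpl38 they were 0 and 377 bp in RXRKO against 0 and 248 bp in WT. Rpl24 had 337 and 16 bp in RXRKO against 0 and 465 bp in WT. Of these 6 genes, 5 lacked a peak in a replicate 1 library and had one in replicate 2 of the same genotype. In all 8 libraries together, 71 of the 82 promoters were called, against 52.9% of all genes.

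At some members the marks lay inside the annotated span and away from its ends, as the map of peaks shows for Rpl22 and Rpl19. Rpl17, a protein at the exit of the peptide tunnel, spans 74998978 to 75003381 on chromosome 18, and only 73 bp of its RXRKO H3K4me3 peak reached the window around its lower end. The peak itself ran from 74999906 to 75001593 in RXRKO, against 74999987 to 75001741 in WT, so the same place was marked in both genotypes. H3K27ac at Rpl17 ran from 75000180 to 75001393 in RXRKO, against 75000224 to 75001273 in WT.

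Rpl19 spans 98022003 to 98030493 on chromosome 11, but its RefSeq starts lie at 98026710 and 98026924. Within 1 kb of the second of these, H3K27ac covered 1316 bp in RXRKO against 1183 bp in WT, and H3K4me3 covered 1563 bp in RXRKO against 1553 bp in WT. Rpl22, a large subunit protein needed for T cell development in mice, has a RefSeq start 1290 bp inside its outer end, at 152325726 on chromosome 4. There H3K4me3 covered 1322 bp in RXRKO and 1280 bp in WT, H3K27ac 920 bp in RXRKO and 1228 bp in WT, and H3K4me1 901 and 1001 bp in RXRKO against 849 and 1057 bp in WT. At the outer end of Rpl22, H3K4me3 covered 32 bp in RXRKO and 0 bp in WT, which is the edge of the same peak.

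Inner starts also held the marks at Rps2, Rpl18, Rpl38 and Rps27l. Counted at RefSeq starts instead, 58 of the 62 genes with a strand had H3K4me3 in both genotypes (66.8% of all such genes), and 58 had H3K27ac in both (57.6% of all such genes). The others were Rpl32l, Rpl10l, Rpl39l and Rpl3l, of which Rpl3l had a promoter call by gene ends. Within 1 kb of either of its starts, each of the 8 libraries covered 0 bp. Its H3K4me3 peak, with a fold over background of 11.4 in RXRKO and 10.4 in WT, lies at its 3' end beside the neighbouring gene Msrb1.

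**Figure D1:**
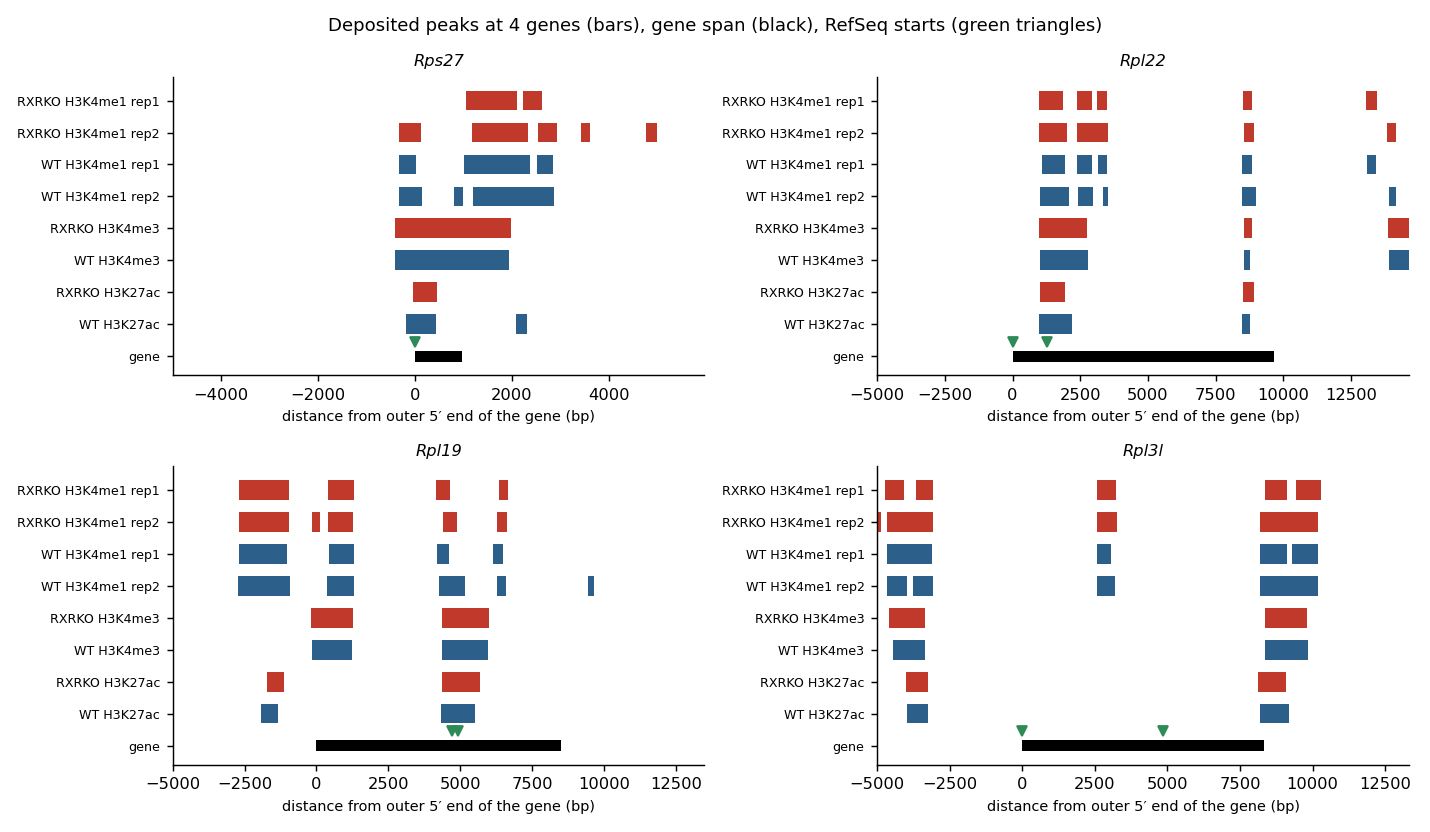
Deposited peaks (bars) of the 8 libraries at 4 genes, RXRKO above WT for each mark, by distance in bp from the outer 5' end of the gene, with the gene's span in black and RefSeq starts as green triangles. Rps27 is marked at its outer end, Rpl22 1290 bp and Rpl19 4707 and 4921 bp inside theirs, and Rpl3l at its 3' end, far before its 5' end and, for H3K4me1, within its span, with no peak within 1 kb of its starts.

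The duplicated and tissue-restricted copies separated into marked and unmarked genes. Rpl10l and Rpl39l had 0 bp of any mark in the gene with its 5 kb flanks in all 8 libraries. Rpl36al, a widely expressed copy of Rpl36a, had 2203 bp of H3K4me3 in RXRKO and 2115 bp in WT. Rps27l, a p53-induced copy of Rps27, had 1630 bp of H3K4me3 in RXRKO and 1666 bp in WT, and 1624 bp of H3K27ac in RXRKO against 1445 bp in WT. Rpl32l, on chromosome 10 from 20208439 to 20209030, had no peak within 1 kb of its ends and 387 bp of H3K4me3 in RXRKO against 622 bp in WT within 5 kb.

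A smaller share of the processed copies of these genes overlapped peaks than of other pseudogenes. An H3K4me3 peak overlapped 1 of 317 annotated ribosomal protein pseudogenes in RXRKO and 2 in WT, against 3.94% of 10011 other pseudogenes in RXRKO and 3.56% in WT. H3K27ac likewise overlapped 1 in RXRKO and 2 in WT, against 3.16% of other pseudogenes in RXRKO and 3.57% in WT. H3K4me1 overlapped 8 and 11 in RXRKO and 8 and 7 in WT (2.52% and 3.47%, and 2.52% and 2.21%), against 6.77% and 7.68% of other pseudogenes in RXRKO and 7.02% and 7.31% in WT. A peak was counted anywhere in a pseudogene's span, so a longer pseudogene has more room for one, and lengths were not compared. These differences were not tested. Parent genes and copies are near-identical in sequence, and how reads with several matches were handled is not given in the sources used here, so values of both are uncertain to that extent.

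The genes are short, with a median length of 3169.5 bp against 17329 bp over all genes, and a mark can cover most of one. Within the gene with its 5 kb flanks, H3K4me3 covered a median of 2436 bp in RXRKO (range 0 to 4607 bp) and 2406.5 bp in WT (range 0 to 4507 bp), above the medians over all genes of 1895 bp in RXRKO and 1772 bp in WT. H3K27ac covered a median of 1564 bp in RXRKO (up to 3369 bp) and 1665 bp in WT (up to 3336 bp), against 1260 bp and 1359 bp over all genes. H3K4me1 ran the other way, with medians of 2061.5 and 2632 bp in RXRKO and 2124.5 and 2316.5 bp in WT for the family, against 2637 and 3189 bp in RXRKO and 2676 and 2833 bp in WT over all genes. The window grows with gene length, so the family and all genes were measured over windows of unlike size. These medians were not compared at equal length. An end of another gene lies within 5 kb of 60 of the 82 genes and within the promoter windows of 30, so part of this length belongs to neighbours. Small nucleolar RNA genes, which guide the modification of ribosomal RNA, number 58 inside 29 of the members.

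**Figure D2:**
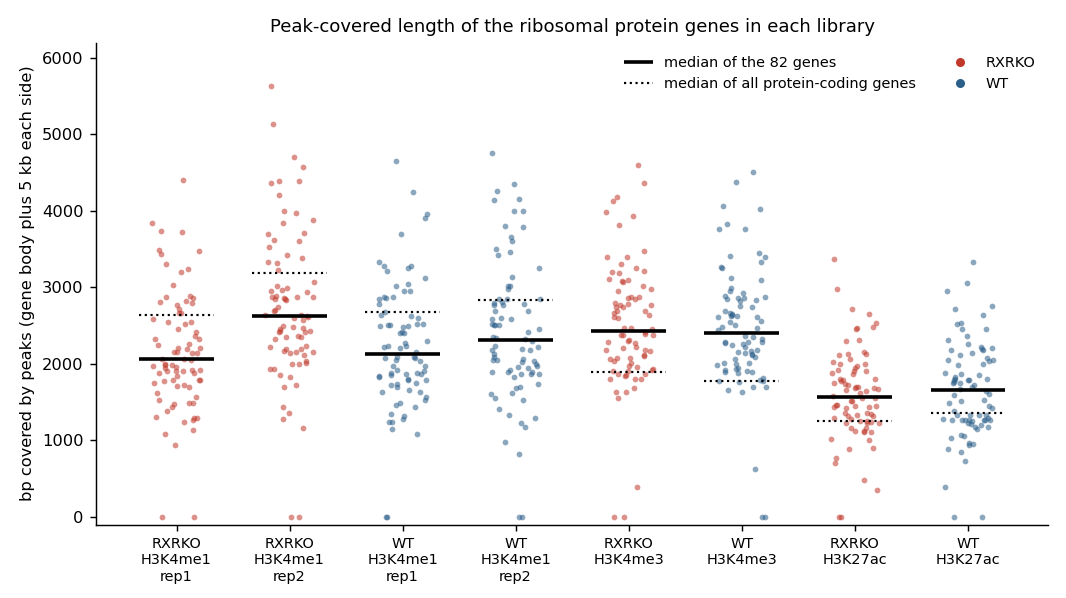
Base pairs covered by peaks in the gene with its 5 kb flanks (vertical axis) for each of the 82 ribosomal protein genes (points) in the 8 libraries, RXRKO left of WT for each mark. Solid lines are the median of the 82 genes and dotted lines the median of all protein-coding genes: the solid line lies below the dotted one in the 4 H3K4me1 libraries and above it in the 4 others. The window grows with gene length and is shorter for most members than for most other genes.

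The order of the marks after the start set the family apart from the average of other genes. It was examined in the 58 members and 11476 other genes with a RefSeq start and H3K4me3 there in both genotypes, using the start with the most H3K4me3 in genes with several. At 500 bp after the start, an H3K4me1 peak was present at 3.45% and 12.1% of members in RXRKO replicates 1 and 2, against 5.17% and 12.1% in WT replicates 1 and 2. Among the other genes it was present at 44.7% and 63.8% in RXRKO and 46.9% and 58.8% in WT. At 1500 bp the order turned, with 46.6% and 51.7% of members in RXRKO and 46.6% and 44.8% in WT, above 30.4% and 33.3% of other genes in RXRKO and 31.6% and 27% in WT. The family thus carried H3K4me1 on both sides of a gap, in both genotypes.

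H3K4me3 filled the same gap. At 1000 bp after the start it covered 91.4% of members in RXRKO and 91.4% in WT, against 50.5% of other genes in RXRKO and 48.8% in WT. H3K4me3 covered more of the 2000 bp after the start than of the 2000 bp before it in 55 of the 58 members in RXRKO and in 55 in WT (94.8% each), against 75.6% of other genes in each genotype. The member medians were 1341.5 bp after and 564.5 bp before the start in RXRKO, and 1365.5 bp after and 553.5 bp before in WT. H3K27ac lay downstream in 41 of 58 members in each genotype (70.7%), against 52.3% of other genes in RXRKO and 56.0% in WT.

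**Figure D3:**
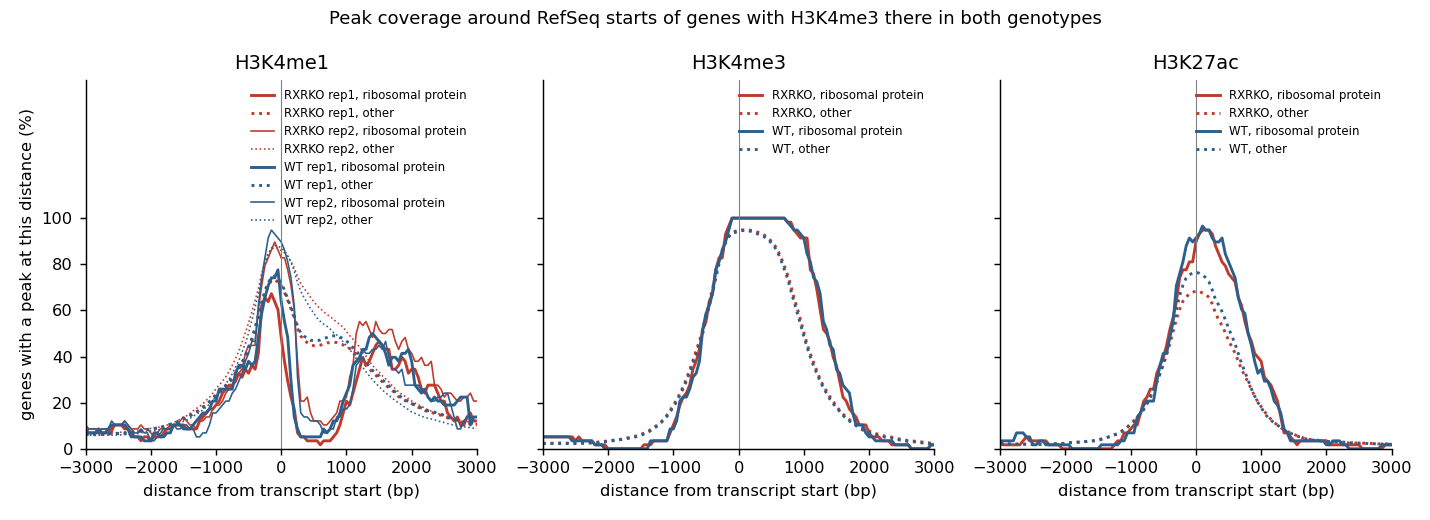
Percent of genes with a peak (vertical axis) at each distance in bp from the RefSeq start, in 3 panels for H3K4me1, H3K4me3 and H3K27ac, with the 58 ribosomal protein genes as solid and 11476 other genes as dotted lines, RXRKO in red and WT in blue, and H3K4me1 replicate 2 as thin lines. At 500 bp the solid H3K4me1 lines lie between 3.45% and 12.1%, under the dotted lines at 44.7% to 63.8%.

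After this profile had been seen, the stretch from 200 to 900 bp after the start was measured gene by gene. It held no H3K4me1 in 43 and 22 of the 58 members in RXRKO replicates 1 and 2 (74.1% and 37.9%), against 42 and 17 in WT replicates 1 and 2 (72.4% and 29.3%). Other genes lacked H3K4me1 there in 24.9% and 12.4% of cases in RXRKO and 23.3% and 13.1% in WT. The spread between replicates, which is also the spread between sequencing runs, was larger than that between genotypes. For the 3223 other genes as short or long as the members (592 to 11774 bp), the shares were 20.7% and 10.6% in RXRKO and 19.7% and 10.9% in WT. H3K4me3 filled all 700 bp in 54 of 58 members in RXRKO and 55 in WT, against 56.9% of other genes in RXRKO and 54.7% in WT.

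No H3K4me1 library covered any of this stretch in 12 members, namely Rpl10, Rpl13a, Rpl15, Rpl35a, Rpl39, Rpl41, Rpl7a, Rplp2, Rps12, Rps15a, Rps19 and Rps2. All 4 libraries covered part of it in 11 members, among them Rpl22, Rps26, Rps27l, Rps28 and Rpsa, the laminin receptor protein of the small subunit. Rpl22 stood at the high end with 393 and 507 bp in RXRKO and 466 and 579 bp in WT. At Rps26 the same count was 28 and 107 bp in RXRKO and 105 and 98 bp in WT. Across the other genes, 71.5% had H3K4me1 in the stretch in all 4 libraries and 9.92% in none.

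The stretch was also often free of H3K4me1 in the replicate 1 libraries in a short list of genes that share translation control with the family. Translation factors and other genes with an oligopyrimidine start (such as elongation and initiation factors) lacked it in 8 and 4 of 9 genes in RXRKO, against 7 and 2 of 9 in WT. Mitochondrial ribosomal protein genes lacked it in 4 and 1 of 69 in RXRKO, against 4 and 3 of 69 in WT. For ribosome assembly and RNA polymerase I genes the counts were 10 and 3 of 34 in RXRKO, against 11 and 5 of 34 in WT. For the ribosomal protein genes outside the naming rule they were 3 and 0 of 5 in RXRKO, against 3 and 1 of 5 in WT. H3K4me3 filled the whole stretch in 8 of 9 oligopyrimidine genes and 4 of 5 genes outside the naming rule in each genotype. It did so in 23 of 69 mitochondrial ribosomal protein genes in RXRKO and 25 in WT. Among the 34 ribosome assembly and RNA polymerase I genes it did so in 19 in RXRKO and 20 in WT. These are descriptions side by side, and the differences between lists were not tested.

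The fold of the peak over its local background, as given by the authors' peak caller, was used to rank and filter peaks within a list. Among all called H3K4me3 promoters the members' median stood at percentile 33.5 in RXRKO and 35.5 in WT, while for H3K27ac it stood at percentile 57.2 in RXRKO and 61.1 in WT. In H3K4me1 it stood at 32.3 and 28.2 in RXRKO and 33.4 and 36.2 in WT. Mitochondrial ribosomal protein genes stood at percentile 76.5 in RXRKO and 76.2 in WT for H3K4me3. Ribosome assembly and RNA polymerase I genes also stood above the median of all called promoters in both genotypes. The oligopyrimidine genes stood lower, at 40.5 in RXRKO and 38.4 in WT, and the genes outside the naming rule at 29.4 and 31.3. Thus the family's H3K4me3 was long and of modest fold, and its H3K27ac of middling fold. A modest H3K4me3 fold was not particular to the family. The differences in fold between lists were not tested.

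Rpl4, a large subunit protein with 5 small nucleolar RNA genes in its introns, had the highest H3K4me3 fold, 13.8 in RXRKO and 13.5 in WT. Rps29, a Diamond-Blackfan anaemia gene, followed with 11.6 in RXRKO and 10.0 in WT, beside the Msrb1 peak at Rpl3l. Among the low H3K4me3 folds were those of Rpl7 (3.66) and Rpl36a (3.90) in RXRKO, and of Rpl18 (3.88) and Rpl36a (4.05) in WT. For H3K27ac, high folds were those of Rpl10 (8.94) and Rpl11 (8.91) in RXRKO, and of Rpl10 (11.4) and Rps29 (9.55) in WT. Rpl18 (2.24) and Rpl22 (2.96) were low for H3K27ac in RXRKO, and Rpl18 (2.81) and Rps12 (3.60) in WT. For Rpl18 and Rpl22 these are the peaks nearest the annotated ends, not those at the inner starts.

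H3K4me1 was the mark with replicates, and it showed no tested difference between RXRKO and WT at any member. Covered length in the gene with its 5 kb flanks was compared as log2 of the length plus 1000 bp, with library medians set equal, over 16719 genes that included 80 members (limma, Benjamini-Hochberg); Rpl10l and Rpl39l were below the minimum length. None of the 80 members passed an adjusted p of 0.05, and neither did any other gene (0% higher and 0% lower in RXRKO), the lowest adjusted p over all genes being 0.136. At an unadjusted p of 0.05, 4 of 80 members passed, against 5.47% of all genes. The median difference was -0.04 for members, with 28 above 0 (35%) and 52 below. For all genes the median was -0.01, with 47.2% above 0. Without setting library medians equal the member median was 0.02, with 48 of 80 above 0 and a median of 0.05 over all genes, a shift that moved all genes alike and left the members' place below the all-gene median as it was.

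Within the sequencing run of replicate 1 the member median was -0.05, and within that of replicate 2 it was -0.02. Both RXRKO libraries lay above both WT libraries in 13 of the 80 members, against 14.7% of all genes, and below them in 18, against 17.2% of all genes. The Diamond-Blackfan anaemia genes had 7 of 19 above 0 and 12 below with a median of -0.07, and the large and small subunit genes had medians of -0.04 each. Mitochondrial ribosomal protein genes had 32 of 78 above 0, the oligopyrimidine genes 11 of 15, the ribosome assembly genes 22 of 40 and the 7 genes outside the naming rule 5, against 47.2% of all genes. No gene of these lists passed the adjusted threshold in either direction.

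The members with the lowest p are described by their lengths. Rplp1, a protein of the stalk that recruits translation factors, had 2206 and 2992 bp of H3K4me1 in RXRKO, against 1704 and 1227 bp in WT, a log2 difference of 0.49 ± 0.14 (SE; limma, adjusted p = 0.598). The RXRKO libraries were both above the WT libraries, and the WT libraries differed from each other by more than those of most members. The other stalk genes did not share this, since Rplp0 had 2253 and 2171 bp in RXRKO against 2078 and 2851 bp in WT, and Rplp2 had 2889 and 4361 bp in RXRKO against 3695 and 3497 bp in WT.

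Rpl17 had 2140 and 2624 bp in RXRKO, against 1469 and 1607 bp in WT, a log2 difference of 0.35 ± 0.11 (SE; limma, adjusted p = 0.693). Rps19, the gene most often mutated in Diamond-Blackfan anaemia, had 2210 and 2963 bp in RXRKO, against 1860 and 1893 bp in WT. For Rps12 the lengths were 1495 and 2225 bp in RXRKO, against 1081 and 1408 bp in WT. Rpl5, which with Rpl11 and the 5S RNA binds the p53 regulator MDM2, had 1481 and 2157 bp in RXRKO, against 1246 and 1291 bp in WT. In each of these the groups did not overlap, but no difference passed the test. Rpl11 itself had 2544 and 3225 bp in RXRKO and 2784 and 2808 bp in WT, which overlapped.

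At the other end stood Rpl32, with 2004 and 2355 bp in RXRKO, against 2518 and 2792 bp in WT, a log2 difference of -0.26 ± 0.11 (SE; limma, adjusted p = 0.882). Rpl24, a protein at the face between the subunits, had 2148 and 2881 bp in RXRKO, against 2410 and 3660 bp in WT. Rps27 had 1439 and 2427 bp in RXRKO and 2049 and 2329 bp in WT. At both Rpl24 and Rps27 the lengths overlapped before library medians were set equal. For Rps21 the lengths were 1265 and 1432 bp in RXRKO against 1439 and 1624 bp in WT.

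**Figure D4:**
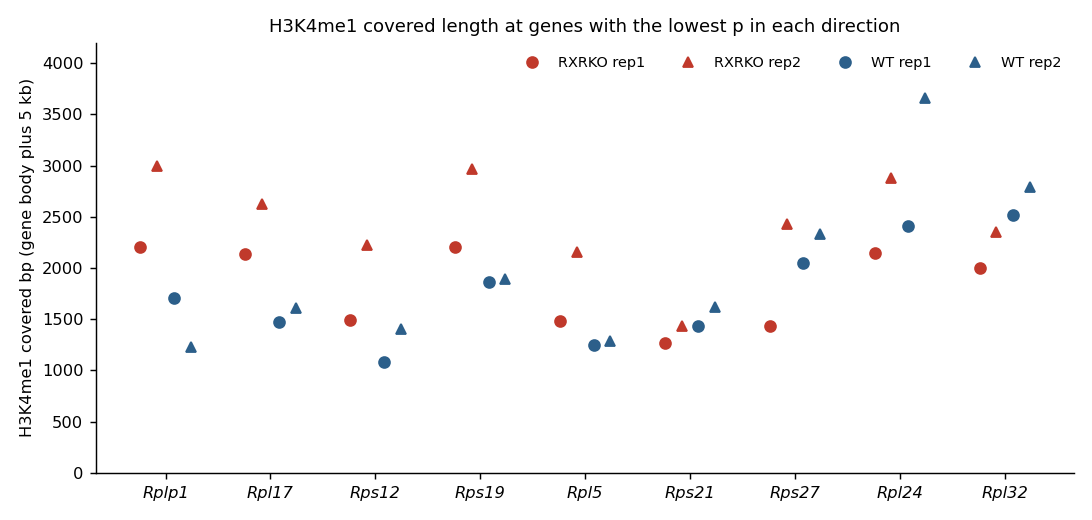
H3K4me1 covered length in bp (vertical axis) in the gene with its 5 kb flanks for 5 members higher in RXRKO (left) and 4 lower in RXRKO (right) among those with the lowest p, with RXRKO libraries in red left of WT libraries in blue, circles for replicate 1 and triangles for replicate 2. Rplp1 has the highest log2 difference of those plotted, with 2206 and 2992 bp in RXRKO and 1704 and 1227 bp in WT.

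In the 1 kb around either gene end the same fit tested 13643 genes, with 66 of the 82 members above the minimum length, and again none passed (0% of all genes in either direction). At an unadjusted p of 0.05, 5 of 66 members passed, against 2.93% of all genes. With sequencing run as a block, 12 of 66 members and 1066 of the 13643 genes passed that unadjusted threshold, and still none the adjusted one. The member median was -0.01, with 29 above 0 and 37 below, while 49.4% of all genes lay above 0. Both RXRKO libraries lay above both WT libraries in 12 members and below them in 16, against 12% and 11.4% of all genes. Rplp1 had 1985 and 2622 bp in RXRKO, against 1691 and 1227 bp in WT, a log2 difference of 0.41 ± 0.12 (SE; limma, adjusted p = 1.00). Without WT replicate 1, the library nearer to RXRKO, its difference was 0.59 and passed (limma, adjusted p = 0.00826), so this call rests on WT replicate 2 as the only WT library, which the fit takes to vary like the RXRKO libraries.

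Rpl32 had 736 and 762 bp at the promoter in RXRKO, against 1123 and 1440 bp in WT, and Rpl15 had 425 and 946 bp in RXRKO, against 1130 and 1171 bp in WT. Rplp0 had 335 and 568 bp in RXRKO, against 592 and 958 bp in WT, Rps27 had 917 and 1252 bp in RXRKO, against 1312 and 1439 bp in WT, and Rps28 had 680 and 1026 bp in RXRKO, against 959 and 1299 bp in WT. The Rps28 lengths overlapped before library medians were set equal. Among those with more H3K4me1 in RXRKO, Rps2 had 691 and 866 bp in RXRKO, against 408 and 421 bp in WT. For Rpl18 the lengths were 1712 and 2001 bp in RXRKO, against 1401 and 1459 bp in WT, and for Rps12 they were 916 and 1435 bp in RXRKO, against 596 and 906 bp in WT. The RefSeq starts of Rps2 and Rpl18 lie 1942 and 2604 bp inside their outer ends, and H3K4me1 was not longer in RXRKO there. Within 1 kb of the Rps2 start it covered 0 and 358 bp in RXRKO, against 0 and 428 bp in WT. At the Rpl18 start it covered 0 and 555 bp in RXRKO, against 246 and 582 bp in WT. Rpl34 had 1547 and 2042 bp in RXRKO, against 1565 and 1044 bp in WT, and its RXRKO replicate 1 lay below WT replicate 1.

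H3K4me3 and H3K27ac have 1 library per genotype, so the differences below have no replicate check and no test. Differences were taken as log2 of the covered length plus 1000 bp, with library medians set equal. Adding 1000 bp makes the fold smaller than that of the lengths themselves. On this scale none of the 80 members above the minimum length for H3K4me3, or the 79 for H3K27ac, reached a 2-fold difference. Among all genes, 0.29% for H3K4me3 and 0.319% for H3K27ac were at least 2-fold longer in RXRKO on this scale. At least 2-fold shorter were 0.0185% for H3K4me3 and 0.458% for H3K27ac. For H3K4me3, 18 of 80 members lay above the all-gene median (22.5%, against 50% by definition) and 62 below, with a member median of -0.04. Related lists were also mostly below it. Above it lay 20 of 78 mitochondrial ribosomal protein genes, 4 of 15 oligopyrimidine genes, 14 of 40 ribosome assembly genes and 1 of 7 genes outside the naming rule. The member share moved closer to 50% at a higher fold cut and with no minimum length. Without setting the medians equal, 51 of 80 members were longer in RXRKO (63.8%, against 73.2% of all genes) with a median of 0.01 against 0.05 over all genes. This setting moves all genes alike, so it cannot change which members lie below the all-gene median. For H3K27ac 47 of 79 members lay above the all-gene median (59.5%) with a member median of 0.02. This share was 43.0% with equal numbers of top peaks in both libraries, 39.0% with no minimum length and 43.2% with flanks of 20 kb, so its direction depended on these settings. Without setting the medians equal 32 of 79 were longer in RXRKO (40.5%, against 40.9% of all genes) with a median of -0.03.

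The H3K4me3 differences spanned -0.28 to 0.15 on the log2 scale. Rps2 had 3402 bp in RXRKO and 2822 bp in WT (0.15), Rplp0 had 3095 bp in RXRKO and 2662 bp in WT (0.11), and Rps15 had 2382 bp in RXRKO and 2064 bp in WT (0.09). Rpl27a had 2315 bp in RXRKO and 2018 bp in WT (0.09), and Rpl15 had 2742 bp in RXRKO and 2476 bp in WT (0.06). Lowest was Rpl32l (-0.28), whose H3K4me3 lies outside its promoter windows. Rps10 had 1562 bp in RXRKO and 1887 bp in WT (-0.22), although its promoter windows held 1327 bp in each genotype. Rpl10, which completes the large subunit, had 2011 bp in RXRKO and 2257 bp in WT (-0.16), Rps3 had 1804 bp in RXRKO and 2005 bp in WT (-0.15), and Rpl9 had 2036 bp in RXRKO and 2244 bp in WT (-0.15).

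H3K27ac differences were wider, from -0.46 to 0.54. Rpl3, which lies at the peptidyl transferase centre, had 1772 bp in RXRKO and 972 bp in WT (0.54), and in its promoter windows 1129 bp in RXRKO and 972 bp in WT. Rpl30 had 1549 bp in RXRKO and 1232 bp in WT (0.24), Rps10 had 1340 bp in RXRKO and 1067 bp in WT (0.23), and Rpl35 had 2980 bp in RXRKO and 2534 bp in WT (0.22). Rps24 had 1241 bp in RXRKO and 2183 bp in WT (-0.46), with 980 bp in RXRKO and 1091 bp in WT in its promoter windows, so most of that difference lies away from its ends. Rplp0 had 1319 bp in RXRKO and 2204 bp in WT (-0.42), and Rpl14 had 1420 bp in RXRKO and 2261 bp in WT (-0.38). Rps14, the small subunit gene of the human 5q deletion syndrome, had 1947 bp in RXRKO and 2760 bp in WT (-0.30), and Rps27 had 490 bp in RXRKO and 852 bp in WT (-0.27).

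**Figure D5:**
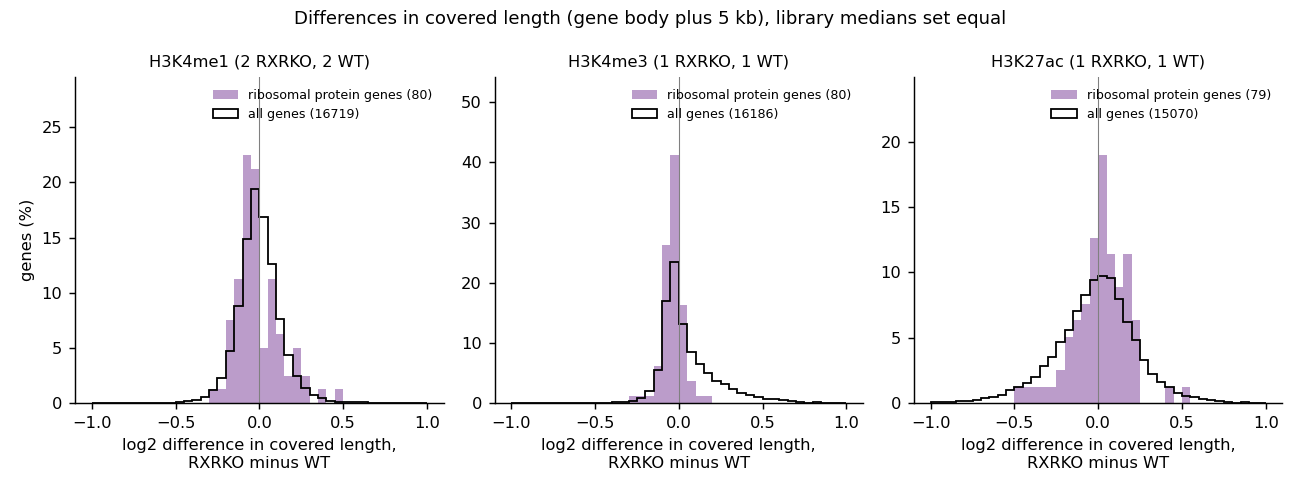
Distribution of the log2 difference in covered length plus 1000 bp (horizontal axis, RXRKO minus WT) as percent of genes, for ribosomal protein genes (filled) and all genes (line), with library medians set equal. The members lie within -0.26 and 0.49 for H3K4me1, -0.28 and 0.15 for H3K4me3, and -0.46 and 0.54 for H3K27ac.

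The 19 Diamond-Blackfan anaemia genes were all called for H3K4me3 and H3K27ac in both genotypes. Their H3K4me3 covered 1562 to 4177 bp in RXRKO and 1630 to 3834 bp in WT, and their H3K27ac 490 to 2980 bp in RXRKO and 852 to 2534 bp in WT. Of the 19, 3 lay above the all-gene median difference for H3K4me3 and 11 for H3K27ac. Of the 7 ribosomal protein genes outside the naming rule, 6 were called for H3K4me3 and 6 for H3K27ac in both genotypes. Called for H3K4me3 in both genotypes were also 75 of 78 mitochondrial ribosomal protein genes, all 15 translation factor and oligopyrimidine genes and 39 of 40 ribosome assembly and RNA polymerase I genes, which for H3K27ac numbered 74, 15 and 38.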

How the data were processed

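CUT&RUN peaks were analysed from 8 libraries of sorted mouse HSCs. Per the submitters' processing notes, the authors used cutadapt 1.7.1, Bowtie2 2.2.5 and MACS3 on mm10; the sources used here name no control library, duplicate filter or spike-in. The deposited files list peaks with a score (10 times -log10 q, cut to a whole number), a fold ratio over local background, -log10 p and -log10 q. Depth is unknown.

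Genes came from RefSeq's table for GRCm38.p6 (mm10), and starts and strands from its promoter table. Base pairs covered by peaks were counted per gene and library in Python 3.11.15. H3K4me1 lengths, as log2(bp + 1000) centred on library medians, were tested with limma 3.58.1 (eBayes with trend, no block) over genes with a mean of at least 1000 bp (500 bp at promoters, and for H3K4me3 and H3K27ac differences), with Benjamini-Hochberg adjustment. On simulated data for the gene body comparison, with 200 changed genes among 16719, 48% of changes of 0.5 and 98% of changes of 1 on the log2 scale were recovered, with 3 false calls. Replicate number marks a sequencing run holding both genotypes, and a second fit took it as a block. Differences between replicates correlated between genotypes with r = 0.226 across genes in gene bodies and 0.524 at promoters. The genes, lists and tests were chosen with earlier results of these data known. Genes named were those without a call in both genotypes, the 5 lowest p in each direction per H3K4me1 fit, the 5 highest and lowest differences per other mark, the 3 highest and lowest folds per list, and members of the fixed lists; some of these genes are not reported here. Stretches after the start and RefSeq starts were added later.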

Additional observations from a re-analysis of the deposited data

How the results depend on the processing

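With the replicate block, 0 members passed in gene bodies and 0 at promoters, as without it, and no member's call changed, while the count over all genes was 15 in gene bodies against 0 without the block. At an unadjusted p of 0.05, 6 of 80 members and 1349 of 16719 genes passed in gene bodies with the block, against 4 and 915 without it. Leaving out 1 library gave 0 members in gene bodies and 0 to 1 at promoters (Rplp1), 0 to 22 genes over all genes in gene bodies and 0 to 50 at promoters. Without a minimum length, in a fit that also left out the trend, 88 genes passed in gene bodies and 54 at promoters, no member among them. The member median in gene bodies was -0.0394, -0.0369 to -0.0235 with 1 library left out, 0.0186 without centring (0.0505 over all genes), -0.0706 for peaks with -log10 q of at least 5, -0.0084 for a fold of at least 4, -0.0084 in a 20 kb window and -0.0161 within replicate 2, whereas the spread between replicates was 0.0229 (SD). The share above the all-gene median for H3K4me3 was 34.2% at a fold of at least 4 and 46.3% with no minimum. For H3K27ac it was 43.0% with equal numbers of top peaks, 39.0% with no minimum and 43.2% in a 20 kb window. Without centring, which moves all genes alike, 63.8% of members were longer in RXRKO for H3K4me3 (73.2% of all genes) and 40.5% for H3K27ac (40.9% of all genes). Promoter calls in both genotypes stayed between 74 and 78 for H3K4me3 and between 67 and 77 for H3K27ac over other peak thresholds, windows and overlaps. At a fold of at least 4, Rps21 (0.0640) in gene bodies and Rpl18 (-0.42) at promoters changed sign, and members free of H3K4me1 200 to 900 bp after the start reached 89.7% and 79.3% in RXRKO and 87.9% and 62.1% in WT, against 55.4% and 40.8% of other genes in RXRKO and 48.8% and 32.7% in WT. The cause of these shifts was not tested. No peak list gives depth, so peaks missed in a shallower library cannot be told apart from lost marks, and neighbours share the windows of most members.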
